A study of Homo sapiens with 6 samples.

Results

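The 48 guide RNAs described here target 12 genes of DNA polymerase subunits and of polymerases that copy damaged DNA, and were read out in a paired-guide knockout screen. They are the guides whose gene symbol begins with Pol, without the RNA polymerase genes (Polr symbols) and without Pola1, Polq, Poll and Polm. The rule used names and no measured value. It found 48 of 1826 gene-targeting guides and 12 of 459 genes, and the library also held 61 non-targeting guides. The genes are Pold1, Pold2, Pold3 and Pold4 of polymerase delta, Pole and Pole2 of polymerase epsilon, the translesion polymerase genes Polh, Poli, Polk and Poln, the base excision polymerase gene Polb, and Polg2 of the mitochondrial polymerase. Each has 4 guides, of which guides 1 and 2 occupy position 1 of the construct and guides 3 and 4 position 2. Of 863546 guide pairs with reads in the series, 44051 (5.1%) hold at least 1 of these guides.

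Each construct of the screen carries a guide at both positions, so that a cell can lose a pair of genes at once, and the read count of a guide pair stands for the number of cells that carry it. The cells were eHAP, which descends from HAP1 and so from a human leukemia with a single set of most chromosomes, as 1 clone (eHAP iCas9-cl#6) that is p53 null and makes Cas9 when doxycycline is added. The lack of p53 is shared by all 3 groups. The gene symbols are written in mouse style although the cells are human. The 3 groups of 2 libraries each are day 0, day 14 without irradiation after 12 population doublings, and day 15 with X-rays of 0.6 Gy given a day after every split, after 10 population doublings. The labels do not say whether replicates were separate cultures, so the p-values below measure only the spread between these libraries. The sequences of the guides and their target sites were not used here, and whether a guide cut its target was not measured.

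Polymerase delta copies mainly the lagging strand of the replication fork and polymerase epsilon mainly the leading strand, each with a catalytic subunit and smaller accessory subunits, and growing cells depend on both enzymes. When the fork meets a damaged base, the sliding clamp PCNA is ubiquitinated by Rad18, and translesion polymerases with looser active sites are recruited to copy past the lesion. Loss of a gene needed for growth lowers the share of its guides as a population doubles, and loss of a gene needed after irradiation lowers it further in irradiated cells.

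The member guides were read deeply, but not evenly over their partners. The libraries held 61185707 to 86587125 reads, and a member guide summed over all partners held 13708 to 344146. In each library the lowest sum was that of Pole guide 3 and the highest that of Poli guide 2. In day 14 replicate 1 and irradiated replicate 2, 54.1% and 49.4% of all guide pairs had no reads, against 1.9% to 7.6% in the other 4 libraries. A member guide was seen with a median of 98.1% and 99.1% of its partners at day 0, 49.8% and 97.6% in the day 14 replicates, and 96.4% and 54.7% in the irradiated ones. In these incomplete libraries, the 10 most abundant constructs of a member guide made up a median of 14.3% and 12.0% of its reads, against 5.2% to 6.2% elsewhere, and up to 31.5% for Pold1 guide 2 at day 14. The most extreme construct was Polh guide 4 with Cenps guide 2, with 5511 reads or 7.21% of that guide's reads in day 14 replicate 1. These 2 libraries carry labels of different groups, yet guides tended to deviate in the same direction in both from the other library of the group (r = 0.663 over the 48 member guides). The groups were taken from the labels as they stand, and whether these libraries share a source or carry a wrong label was not tested, so each day 14 and irradiated value rests on that. Without both of them, edgeR called 0 member genes and 0 member guides in each comparison. The member genes then ranged from -0.07 (Pold2) to 0.06 (Poln) at day 14, from -0.09 (Pole) to 0.07 (Poln) after irradiation against day 0, and from -0.08 (Pole) to 0.09 (Polh) against day 14. Day 0 replicate 1 stands apart in another way. Of 927 guides at position 2, 264 were lower there than in day 0 replicate 2 by more than 0.5 on the log2 scale, and 0 of the 24 member guides at position 2 were, which ranged from -0.16 to 0.25. The share of these differences in the results below was not tested beyond the values without single libraries.

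The first comparison asked which polymerase guides were lost or gained over 14 days of standard growth. None of the 12 genes changed by edgeR's quasi-likelihood test. Their changes ran from -0.145 (Pold2) to 0.08 (Poln) on the log2 scale, with a median of 0.008 against 0.007 over all 459 genes. Pold2 was lower and Poln, Pold4 and Polk were higher in all 4 comparisons between a day 14 and a day 0 library. Catalytic subunits of both replicative enzymes stood close to day 0, with Pold1 at 0.03 and Pole at -0.005.

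The test called 0 of 12 member genes and 0% of all 459 genes, with a smallest adjusted p of 0.549 among the members. Of the members 5 were lower and 7 higher, where 48.4% of all genes were lower and 51.6% higher. An unadjusted p under 0.05 was reached by 0 members and by 18 genes of the whole library (3.92%), and DESeq2 called 2 genes, with 0 members among them. The 1 member lower and the 3 members higher in 4 of 4 library comparisons stand against 19.6% and 20.3% of all genes in these directions. For a typical gene the 95% interval reached 0.14 to either side. The lowest bound among the 12 members was -0.35, for Pold2, which corresponds to 78.2% of its share at day 0.

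Pold2 encodes the regulatory subunit that ties the catalytic subunit of polymerase delta to its accessory subunits, and lies on human chromosome 7 at 44114680 to 44124325 (GRCh38.p14). Its normalised read count, as a share of the summed reads of all genes after TMM scaling, in CPM, was 1775 and 1668 at day 0, 1477 and 1637 at day 14, and 1676 and 1483 in the irradiated libraries. Both day 14 libraries lay below both day 0 libraries, whereas irradiated replicate 1 lay between the day 0 values. The change was -0.145 at day 14 (SE 0.085, 95% interval -0.354 to 0.064, n = 2 libraries per group, edgeR adjusted p = 0.549), the 12th lowest of 459 genes, and -0.12 after irradiation against day 0 (SE 0.085, adjusted p = 0.623). All 4 guides were below 0 at day 14 and after irradiation, although this direction alone passed no test. Guides 3 and 4 at position 2 carried more of it than guides 1 and 2, with gene-level changes of -0.19 from position 2 alone and -0.105 from position 1 alone at day 14, and -0.24 and -0.04 after irradiation. Guide 3 stood at 885 and 742 normalised reads at day 0, 681 and 723 at day 14, and 723 and 622 after irradiation. The low end of that series was irradiated replicate 2 and the high end day 0 replicate 1. Without both incomplete libraries, Pold2 was at -0.07 at day 14 and -0.04 after irradiation, with the same sign and a smaller size.

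The other subunits of polymerase delta lay within 0.04 of day 0. Pold1, which encodes the catalytic subunit with its proofreading exonuclease (human chromosome 19, 50384323 to 50418018), stood at 1484 and 1569 normalised reads at day 0, 1553 and 1570 at day 14, and 1545 and 1541 after irradiation. The groups overlapped, and the changes against day 0 were 0.03 (SE 0.051) and 0.015. Its guides did not move alike. Guide 1 was at 850 and 878 normalised reads at day 0 but at 721 in day 14 replicate 1 and 768 in irradiated replicate 2, and at 852 and 860 in the complete libraries. Guide 3 was at 726 and 810 at day 0, 980 and 858 at day 14, and 822 and 927 after irradiation. All 4 later libraries lay above both day 0 libraries for guide 3, which had a day 14 change of 0.26 (SE 0.107, 95% interval -0.009 to 0.526, edgeR adjusted p = 0.646). In day 14 replicate 1, its 10 most abundant constructs held 15.4% of its reads, against 4.4% and 4.2% at day 0.

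Pold3 and Pold4 encode accessory subunits, of which Pold3 binds PCNA and Pold4 is the small subunit that cells degrade after DNA damage. Pold3 stood at 2379 and 2464 normalised reads at day 0, 2359 and 2449 at day 14, and 2446 and 2364 after irradiation, and the groups overlapped. Its changes against day 0 were -0.01 in both comparisons. Pold4 stood at 2044 and 2085 at day 0, 2087 and 2113 at day 14, and 2103 and 2110 after irradiation. All 4 later Pold4 values lay above both day 0 values, at changes of 0.02 (SE 0.040) and 0.03, which are smaller than their standard errors.

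Polymerase epsilon gave the least abundant member. Pole encodes its catalytic subunit (human chromosome 12, 132623762 to 132687342) and stood at 1243 and 1200 normalised reads at day 0, 1218 and 1216 at day 14, and 1151 and 1249 after irradiation. The irradiated libraries gave both the lowest and the highest of these values, and the changes were -0.005 (SE 0.060) and -0.03 against day 0. Pole guide 3, which had reads with 891 partners in at least 1 library, was seen with only 153 of them in day 14 replicate 1 and 184 in irradiated replicate 2. Pole guide 4 stood at 406 and 373 at day 0, 343 and 341 at day 14, and 321 and 370 after irradiation, and all 4 later libraries lay below both day 0 libraries. Its day 14 change was -0.19 (SE 0.103, edgeR adjusted p = 0.646), and the other 3 guides of the gene did not share that order. Pole2, which encodes the second subunit of the enzyme, stood at 2054 and 2113 at day 0, 2014 and 2119 at day 14, and 2148 and 2095 after irradiation, with changes of -0.01 and 0.03. Its groups overlapped.

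Among the translesion polymerases, Poln had the highest change against day 0 in both comparisons. Poln encodes a polymerase of family A (human chromosome 4, 2071918 to 2242121) and was at 3889 and 3981 normalised reads at day 0, 4229 and 4099 at day 14, and 4139 and 4223 after irradiation. The groups did not overlap with day 0 in either comparison. The change was 0.08 at day 14 (SE 0.034, 95% interval -0.002 to 0.164, edgeR adjusted p = 0.549) and 0.09 after irradiation (95% interval 0.004 to 0.170, adjusted p = 0.623), and neither passed the adjusted threshold of 0.05. In all 4 library comparisons the later library was higher. Position 2 carried most of it, at 0.13 for both comparisons, with 0.03 and 0.04 from position 1. Guide 3, the most abundant of the 4, stood at 2880 and 2982 normalised reads at day 0, 3281 and 3141 at day 14, and 3150 and 3288 after irradiation. All later libraries were above both day 0 libraries for guide 3, which had the smallest p of all member guides in both comparisons against day 0, at 0.13 (edgeR adjusted p = 0.646) and 0.135 (adjusted p = 0.789). Guide 4 showed the same order, at 1650 and 1739 at day 0, 1899 and 1802 at day 14, and 1741 and 1906 after irradiation.

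Polh encodes polymerase eta, which copies past ultraviolet-light dimers (human chromosome 6, 43576185 to 43620523). It stood at 2671 and 2689 normalised reads at day 0, 2757 and 2616 at day 14, and 2780 and 2796 after irradiation. The irradiated libraries lay above all other 4 libraries, at 0.06 against day 0 (SE 0.041, edgeR adjusted p = 0.623) and 0.05 against day 14 (adjusted p = 0.996), and the day 14 libraries spanned day 0. Poli, for polymerase iota, stood at 3916 and 4051 at day 0, 4042 and 3998 at day 14, and 4017 and 4147 after irradiation. Polk, for polymerase kappa, stood at 2047 and 2065 at day 0, 2166 and 2081 at day 14, and 2037 and 2122 after irradiation. Poli overlapped between all 3 groups. Polk at day 14 lay above day 0 in both libraries, at 0.05 (SE 0.046), while its irradiated values spanned day 0.

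The remaining 2 members work outside fork copying. Polb fills the gap in base excision repair and stood at 3371 and 3378 normalised reads at day 0, 3628 and 3369 at day 14, and 3378 and 3636 after irradiation. The 2 incomplete libraries were the highest of the 6, and the changes were 0.05 and 0.055 (SE 0.054). Polg2 encodes the accessory subunit of the mitochondrial polymerase (human chromosome 17, 64477785 to 64497054) and stood at 2667 and 2723 at day 0, 2569 and 2784 at day 14, and 2751 and 2562 after irradiation. Here the incomplete libraries were the lowest of the 6, and the changes were -0.009 and -0.02.

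The second comparison set irradiated cells against day 0. The member genes ranged from -0.12 (Pold2) to 0.09 (Poln), with a median of 0.02 against -0.004 over all genes. Edges of the 95% intervals reached from -0.33 to 0.19. Poln, Polh and Pold4 were higher in all 4 library comparisons and 0 members were lower in all 4, against 20.5% and 17.9% of all genes. Of the members 4 were lower and 8 higher, where 52.1% and 47.9% of all genes were. By edgeR's test 0 of 12 members and 0% of 459 genes were called. An unadjusted p under 0.05 was reached by 1 member, Poln, and by 18 genes (3.92%), and DESeq2 called 2 genes, 0 of them members.

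The third comparison, irradiated day 15 against day 14, asks for a response to X-rays in cells grown for a similar time, although the groups also differ in population doublings (10 against 12). The members lay within -0.03 (Polk) and 0.05 (Polh), a narrower span than against day 0, and the lowest and highest interval bounds were -0.19 and 0.23, both of Pold2. Polh was higher in all 4 library comparisons and Pold1 lower, at -0.02, against 16.6% and 16.8% of all genes. By edgeR 0 of 12 members and 0% of 459 genes were called, and 0 members and 12 genes (2.61%) had an unadjusted p under 0.05. DESeq2 called 1 gene, which is not a member. Again 4 members were lower and 8 higher, where 48.4% and 51.6% of all genes were. The 2 comparisons against day 0 share its libraries, and the third shares the later libraries with them, so the 3 sets of values are not independent.

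Guide by guide, the test over 1849 guides with a mean of at least 2000 reads, non-targeting guides included, called 0 guides (0%) and thus 0 of 48 member guides in each comparison. At day 14, 1 member guide and 79 guides in all (4.27%) had an unadjusted p under 0.05. After irradiation the counts were 1 and 57 (3.08%) against day 0 and 1 and 83 (4.49%). DESeq2 called 24, 27 and 25 guides in the 3 comparisons, 0 of them members. The median 95% half-width of a guide's change was 0.202. All 48 lower bounds lay above -1 in each comparison, the lowest being -0.51, -0.57 and -0.50. At day 14, 22 member guides were lower and 26 higher, where 50.3% and 49.7% of all guides were. After irradiation against day 0 these numbers were 20 and 28 (51% and 49% of all guides), and against day 14 they were 23 and 25 (51.3% and 48.7%). At day 14, 6 member guides were lower and 10 higher in 4 of 4 library comparisons, against 21.3% and 19.4% of all guides. After irradiation 8 were lower and 11 higher against day 0 (18.1% and 18% of all guides), and 4 lower and 5 higher against day 14 (15.7% and 15.1%). As shares of the 48 these are 12.5% and 20.8% at day 14, 16.7% and 22.9% after irradiation against day 0, and 8.33% and 10.4% against day 14. The shares lower at day 14, and in both directions against day 14, are thus below those of all guides, and this difference was not tested.

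The 3 member guides of smallest p were Poln guide 3, Pold1 guide 3 and Poln guide 4 at day 14, and Poln guide 3, Pold2 guide 3 and Pold2 guide 4 after irradiation against day 0. Against day 14 they were Polg2 guide 2, Pole2 guide 1 and Polh guide 1. Pold2 guide 3 was at -0.28 after irradiation against day 0 (SE 0.118, 95% interval -0.572 to 0.021, edgeR adjusted p = 0.789) and guide 4 at -0.21 (SE 0.107). Guide 4 stood at 729 and 620 normalised reads at day 0 and 613 and 551 after irradiation, with the lower day 0 value close to the higher irradiated one. Without day 0 replicate 1, in which these guides were higher than in replicate 2, the values were -0.14 and -0.09. Without day 0 replicate 2, guide 3 passed the test at -0.40 (edgeR adjusted p = 0.0239), the only member guide to do so, in a setting where 16.9% of all guides were called. Polg2 guide 2 was at -0.205 after irradiation against day 14 (SE 0.075, 95% interval -0.392 to -0.017, edgeR adjusted p = 1.0), with 1163 and 1096 normalised reads at day 14 and 1035 and 925 after irradiation. Its groups did not overlap, but its day 0 values of 1040 and 1048 were close to irradiated replicate 1. Pole2 guide 1 stood at 1185 and 1230 at day 14 and 1274 and 1296 after irradiation (a change of 0.09), and Polh guide 1 at 1802 and 1670 against 1834 and 1868 (also 0.09).

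By role, most replicative guides at position 1 lay just below day 0 and most translesion guides just above. At day 14, 10 of the 12 replicative guides at position 1 were lower, with a median of -0.03, and after irradiation 11 of 12, with a median of -0.04. All 922 guides at position 1 had medians of -0.003 and -0.001, with 474 and 468 lower. The replicative guides at position 2 did not share this, with 4 and 6 of 12 lower and medians of 0.03 and 0.01. By library, the position 1 medians against the day 0 mean were -0.07 and -0.006 in the day 14 replicates and -0.01 and -0.06 in the irradiated ones. The larger deviations were thus in the 2 incomplete libraries, and those in the complete ones were within the 0.014 that separated each day 0 library from their mean. Of the 16 translesion guides, 12 were higher at day 14 (median 0.035) and 15 after irradiation against day 0 (median 0.04), where 49.7% and 49% of all guides were higher. Against day 14, 9 of 16 were higher, with a median of 0.007. At position 2, 17 and 18 of all 24 member guides, translesion guides included, were higher at day 14 and after irradiation against day 0. Of the 8 translesion guides there, 7 and 8 were higher, and of the 12 replicative guides 8 and 6. The 4 guides of Polb and Polg2 at position 2 had 2 higher at day 14 and 4 after irradiation. In the complete libraries the translesion medians were -0.04 and 0.005 at position 1 and 0.05 and 0.05 at position 2, against 0.03 in day 0 replicate 2. No test was made of these role groups, and guides of a gene share their target.

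Deviations of a member guide recurred between the incomplete libraries. The difference of day 14 replicate 1 from replicate 2 correlated with that of irradiated replicate 2 from replicate 1 at r = 0.663 over the 48 member guides, at 0.585 at position 1 and 0.734 at position 2, and at 0.579 over all 1849 guides. These are descriptions over guides that share libraries, not tests over samples. Polb guide 3 is an example, at 3100 and 2961 normalised reads in the incomplete libraries and 2634 to 2678 in the other 4. Pold1 guide 1 and Pold3 guide 1 ran the other way, the latter at 856 and 935 in the incomplete libraries against 1030 to 1047 elsewhere. The SD of the difference between replicates over member guides was 0.094 at day 0, 0.142 at day 14 and 0.112 after irradiation.

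Guides of the same member gene agreed weakly. Over all 4 guides the intraclass correlation of their changes, which is 1 when all guides of a gene agree, was 0.182 at day 14, 0.269 after irradiation against day 0 and -0.09 against day 14. Over 414 genes of the library with 4 guides it was 0.244, 0.239 and 0.05. Within position 1 the members' values were 0.031, 0.617 and -0.151 in the same order, against 0.142, 0.146 and 0.183 over 439 genes. Within position 2 they were 0.423, 0.695 and 0.352, against 0.797, 0.774 and 0.057 over 432 genes. Each of these member values rests on 12 genes with 2 guides each.

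Constructs in which a member guide is paired with a non-targeting guide come closest to a single knockout, at lower depth. On these, Pold1 stood at 0.38 (95% interval -0.07 to 0.83), Pold2 at -0.27 (-0.71 to 0.17) and Poli at 0.26 (-0.19 to 0.71) at day 14. After irradiation against day 0, Poli stood at 0.37 (-0.08 to 0.82) and Pold3 at -0.33 (-0.71 to 0.05), and Pold3 was at -0.335 (-0.715 to 0.045) against day 14. In this edgeR fit 0 of the 12 members had an unadjusted p under 0.05 in each comparison, against 3.92% of all 459 genes at day 14, 2.61% after irradiation against day 0 and 2.83% against day 14. Poln, at 0.13 at day 14, was at -0.065 after irradiation, so its sign differs there from that over all partners.

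The median over constructs weights each construct alike, among those with reads in both day 0 libraries and in the later library. Constructs that fell to 0 are thus left out of it. This median gave another view in the complete library of each later group against day 0. Its 0 is the median of all such constructs, not the median of genes. There Pold2 was at -0.10 in day 14 replicate 2 and in irradiated replicate 1, the 71st and 75th lowest of 459 genes. Pole was at -0.05 and -0.13, in the second case the 32nd lowest, over 2931 constructs. Poln was at 0.05 and 0.09. The medians of all genes spanned -0.275 to 0.335 and -0.295 to 0.482, and with 1 library on the later side no test was made.

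Constructs with both guides against the same gene were few and their counts low. For Pold2 their summed raw counts were 200 and 197 at day 0, 83 and 132 at day 14, and 100 and 6 after irradiation. All 4 later Pold2 sums lay below day 0, and guide 2 with guide 4 went from 42 and 13 reads at day 0 to 0 in the other 4 libraries. Those 4 include both incomplete libraries, in which guides 1 and 2, each with guide 3, also had 0 reads. In the complete later libraries these constructs held 35 and 30 reads at day 14, and 64 and 15 after irradiation. For Pole the sums were 106 and 86 at day 0, 0 and 74 at day 14, and 41 and 67 after irradiation, and the 0 was in an incomplete library. Pold3 went the other way after irradiation in 1 library, with 632 and 547 reads at day 0, and 322 and 831 after irradiation. Pold4 stood at 171 and 432 at day 0 and 344 and 1447 after irradiation, with the highest of these counts in irradiated replicate 2. Its change was 1.63 (95% interval -0.40 to 3.66, edgeR adjusted p = 0.999). Over alternative settings, single libraries left out among them, that change ran from 0.47 to 2.46. The fitted values for Pold2 were -0.39 at day 14 and -1.64 after irradiation against day 0 (95% interval -5.57 to 2.30). By edgeR 0 of 12 members and 0% of 457 genes were called, 0 members and 2 genes (0.438%) had an unadjusted p under 0.05 in each comparison, and the typical 95% interval reached 2.16 to either side, so a several-fold loss was not detectable at this depth. At day 14, 5 members were lower and 7 higher (58.4% and 41.6% of genes), and 1 was lower and 2 higher in 4 of 4 library comparisons (20.4% and 11.2%). After irradiation against day 0, 2 members (Pold2 and Pole) were lower and 4 higher in 4 of 4 library comparisons, against 20.8% and 14.4% of genes, and in all 5 were lower and 7 higher (54.3% and 45.7%). Against day 14, 7 were lower and 5 higher (48.4% and 51.6%), and 1 was lower and 0 higher in 4 of 4 (8.75% in either direction).

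The genes that work with the members showed no called change either. Of 20 listed translesion partners 17 were measured. By edgeR 0 were called in each comparison, and the day 14 median was -0.05, against 0.007 over all genes, with 10 of the 17 lower, where 48.4% of all genes were. From position 1 guides alone the median was 0.01, on the other side of 0. Primpol, the primase that restarts stalled forks, was at -0.15 (edgeR adjusted p = 0.549), and Usp1, which removes ubiquitin from PCNA, at -0.15. After irradiation Primpol was at -0.12 against day 0 and Rnf8, a ubiquitin ligase, at -0.10. Against day 14, Usp1 stood at 0.17 (edgeR adjusted p = 0.996), and Rev3l, the catalytic subunit of polymerase zeta, at 0.07. The Usp1 value against day 14 thus runs opposite to that at day 14.

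Of 32 listed fork partners 19 were measured, with 12 lower and 7 higher in both comparisons against day 0, where 48.4% and 52.1% of all genes were lower, and 0 called by edgeR in each comparison. The medians of -0.03 in both became 0.008 and 0.001 from position 1 guides alone. Gins2, of the helicase complex, was at -0.14 at day 14 and at -0.14 after irradiation, Mcm3, a helicase subunit, at -0.18 after irradiation, and Rfc1, of the clamp loader, at 0.11 at day 14. Against day 14, Rfc1 was at -0.10 and Timeless, a fork protection factor, at -0.07. All 21 listed base excision partners were measured, with 0 called by edgeR in each comparison. At day 14 the median was 0.165 and 14 of the 21 were higher, but 22 of their 42 guides at position 2 were lower in day 0 replicate 1 than in replicate 2 by more than 0.5, and from position 1 alone the median was 0.04. Mutyh was at 0.28 and Nthl1 at 0.18, both glycosylase genes. Neil3, another glycosylase gene, was at 0.22 after irradiation against day 0 (edgeR adjusted p = 0.623), and Parp1, a sensor of DNA breaks, at -0.08 against day 14.

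For pairs of genes, the interaction is the log2 change of the double knockout beyond the sum of both genes' own changes. Over 105111 pairs, edgeR called 0 (0%) in each comparison, 0 among the 5430 pairs that hold a member. An unadjusted p under 0.05 was reached by 13, 19 and 46 member pairs at day 14, after irradiation against day 0, and against day 14, where 0.421%, 0.354% and 0.832% of all pairs did so. The median 95% half-width over member pairs was 1.25, so interactions of that size can go uncalled. It is not a limit of detection, since member pairs up to 3.478 against day 14 were not called either. Of the 66 pairs of a member with another member, 35 had interactions below 0 at day 14 and 33 after irradiation against day 0. Of 24 pairs chosen for a known relation, 21 were measured and 0 called.

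Among these, Polh with Rad18, the ligase that marks PCNA for translesion synthesis, stood at 1.39 after irradiation against day 0 (95% interval 0.18 to 2.60, edgeR adjusted p = 0.9999). Its raw counts were 1088 and 1280 at day 0, 1153 and 1180 at day 14, and 1262 and 4132 after irradiation. The highest raw count lay in irradiated replicate 2. Raw counts are not scaled for depth, and irradiated replicate 1 held 71481191 reads in all against 84399152 and 86542435 at day 0. Relative to library totals, irradiated replicate 1 lay above both day 0 libraries for this pair, as did both day 14 libraries. Polh with Rev1, the scaffold of the translesion polymerases, also had its highest raw count in irradiated replicate 2. Its counts were 2010 and 1933 at day 0, 959 and 1330 at day 14, and 1551 and 4670 after irradiation. Pold1 with Pole stood at 377 and 305, 174 and 132, and 131 and 1295 reads in the same order, and here too irradiated replicate 2 stood apart. Polh with Rev3l stood at 1604 and 1508, 1642 and 1228, and 1492 and 1504 reads in that order. Poli with Rev1 stood at 2333 and 2557, 2517 and 2102, and 2149 and 2911. Relative to library totals, day 14 replicate 1, with 61962789 reads in all, was the highest library for both of these pairs.

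The pairs of smallest p that hold a member were spread over several partners. At day 14 they were Poli with Ssrp1 (1.34), Bard1 with Pold1 (1.74) and Ggn with Pole (2.02). For Ggn with Pole the counts were 496 and 423 at day 0 and 1513 and 398 at day 14, and the high count lay in the incomplete library. After irradiation against day 0 they included Polk with Psme4 (1.39) and Pold3 with Sfpq (1.14). Pold3 with Sfpq stood at 709 and 1008 reads at day 0, 616 and 629 at day 14, and 1265 and 1806 after irradiation, so both irradiated libraries lay above the other 4. Against day 14 they were Bivm with Pold4 (-1.64), Pold2 with Polr2i (-2.23) and Fancg with Polb (-1.10). Pold2 with Polr2i, a subunit of RNA polymerase II, stood at 610 and 440 reads at day 0, 590 and 285 at day 14, and 167 and 99 after irradiation (edgeR adjusted p = 1.0). Both irradiated libraries were the lowest of the 6 for this pair, and neither it nor any other named pair passed the adjusted threshold.

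Without both incomplete libraries, which leaves 1 library in each later group, 12 member pairs were called at day 14 (0.221% of 5430, against 0.159% of all pairs). After irradiation against day 0 there were 56 (1.03%, against 1.2%), and against day 14 there were 10 (0.184%, against 0.205%). The lone libraries are assumed there to vary like day 0, and the members' shares are near those of all pairs.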

How the data were processed

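The authors deposited raw read counts for every guide pair and library, as whole numbers. HISAT2 2.1.0 and hg38 appear in the submitters' processing notes without a role, and the assignment of reads to guides was not given in the sources used here. Pairs not listed in a library were set to 0, and 2 columns of the combined tables that match no sample were not used.

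Counts were summed per guide over all partners, per gene over all constructs with at least 1 of its guides, per gene over same-gene constructs, and per gene pair. Guides and genes needed a mean count of at least 2000, same-gene sums and pairs of at least 20. Sums were scaled by TMM, guides within each position, and fitted in R 4.3.3 with edgeR 4.0.16 (glmQLFit, glmQLFTest, two-sided) over all 6 libraries, with Benjamini-Hochberg adjustment over all features and a threshold of 0.05. For pairs, an additive fit of medians on log2 CPM (prior count 2, 25 iterations) was the offset. DESeq2 1.42.0 was an alternative test. The scripts were tested on simulated data. Depth was 61185707 to 86587125 reads per library, and PCR reads are not independent molecules. Gene positions are RefSeq's of GRCh38.p14, found by symbol for all 12 genes.

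Groups and replicate numbers came from the sample titles. Deviations of same-numbered libraries correlated over member guides at 0.106 (day 0 with day 14), 0.056 (day 0 with irradiated) and -0.663 (day 14 with irradiated). These correlations cannot show whether the numbers pair the samples. The main fit used no replicate block and treated the libraries as independent, so the dependence between day 14 and irradiated libraries was not modelled. By rule, every member gene is named, as are the 3 member guides of smallest p per comparison, up to 2 genes of smallest p per partner list, and the 3 member pairs of smallest p. A few items that this rule names are not reported here. Other pairs and genes shown as examples were chosen after their values were seen. The members and lists were chosen with earlier results of these data known.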

Additional observations from a re-analysis of the deposited data

How the results depend on the processing

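With the settings used in the text, 0 guides, genes, same-gene sums and pairs were called in each comparison. DESeq2's test called 24 guides at day 14, 27 after irradiation against day 0 and 25 against day 14, and 2, 2 and 1 genes. Fitted within each position, which was chosen after seeing the data, 2, 1 and 10 guides were called, and from position 1 guides alone 2, 2 and 10 genes. After irradiation against day 0, scaling to non-targeting guides called 2 guides. Against day 14 it called 2, DESeq2's size factors 1, TMM over both positions 3 and no count filter 1. A replicate block called 1 guide and 1 gene pair in each irradiated comparison, and 0 elsewhere, and with it 0 member features were called.

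Leaving out single libraries gave 0 to 310 guides at day 14, 0 to 312 after irradiation against day 0 and 0 to 10 against day 14. For genes the ranges were 0 to 168, 0 to 163 and 0 to 1, and for gene pairs 0 to 1 in both irradiated comparisons. The highest counts against day 0 came without day 0 replicate 2, where replicate 1 is the only day 0 library. Member guides called ranged from 0 to 1 (Pold2 guide 3). Without both incomplete libraries, 1 same-gene sum was called at day 14, and 167, 1261 and 215 gene pairs, of which 12, 56 and 10 hold a member. The causes of these shifts were not tested.

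Over 15 alternatives, 2 member genes kept 1 sign at day 14 (Pold2 and Poln), 4 after irradiation against day 0 (Pold2, Pole2, Polh and Poli) and 0 against day 14. The median over constructs, added after seeing the data, is not among these. In irradiated replicate 1 against day 0 it put Pole2 at -0.001, Polh at -0.003 and Poli at -0.012. On that scale 0 is the median construct and not the median gene. These genes ranked 277th, 274th and 262nd from the lowest of 459, so their values below 0 do not place them below most genes. With 2 libraries per group, and half-widths of 0.14 for genes and 0.202 for guides, changes of that size can go uncalled. These are not limits of detection. After irradiation against day 0, genes up to 0.45 and guides up to 1.694 were not called either. The DESeq2 test was not run on same-gene sums and pairs.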
